A study of Mus musculus with 4 samples.

Results

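The 10 genes described here are classed as replacement histone genes, whose products are mostly made throughout the cell cycle and replace histones deposited during DNA synthesis. They are the linker histones H1f0 and H1fx, the H2A variants H2afx, H2afj, H2afz, H2afv, H2afy and H2afy2, and the H3.3 genes H3f3a and H3f3b. They were chosen by name, and all 10 of them were found among the 28250 genes of the deposited expression tables and passed the filter on low values, as 20336 genes did in all. The libraries were made from TBV2, a feeder-dependent mouse embryonic stem cell (ESC) line of 129/SvP background kept with LIF, and sequenced after 24 h with solvent (2 libraries) or after 24 h with 5 µM MS-275 (2 libraries). MS-275, also called entinostat, inhibits class I histone deacetylases. No other genotype or agent separates the groups, and the sources used here do not say whether the 2 libraries of a group came from separate cultures, so every p-value below measures the spread between libraries, which may be technical.

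Most histone mRNA comes from clustered genes that are expressed in S phase and whose transcripts end in a stem-loop in place of a poly(A) tail. Replacement histone genes mostly lie alone, many hold introns, and their mRNAs are as a rule polyadenylated, so the proteins can be exchanged into chromatin at any time. H3.3 marks active genes and, through other chaperones, repeats and telomeres. H2A.Z flanks start sites, H2A.X is phosphorylated beside DNA breaks, macroH2A is found on silent chromatin and on the inactive X chromosome, and H1.0, the product of H1f0, accumulates in cells that stop dividing and is a classical example of a gene induced by inhibitors of histone deacetylases.

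RNA had been selected for poly(A) in 2 rounds, which favours the 10 genes over the clustered ones. The authors' normalized expression value is a signal made with Genomatix, and it could be traced in the files: for genes with a single one-exon transcript it equalled the alignments on the transcript divided by its length, after scaling each library to 10 M alignments. A value of 1 is thus 1 alignment per base in a library of 10 M. The match also showed which alignments each value rests on. Solvent replicate 1 fell within 2% of that formula for 125 of 267 genes when the alignments deposited with solvent replicate 2 were used, and for 9 of 267 with its own, and the other 3 libraries showed the same exchange within their condition (46.8% to 51.3% against 2.05% to 3.37% of the genes). H1fx was one such gene: its value of 0.16374 in solvent replicate 1 was expected to be 0.163736 from 170 alignments over 1061 bases, counted in the file of solvent replicate 2. No library left its group in this exchange. The alignments behind both replicate 1 values held no position more than once (9785619 for solvent and 10915650 for MS-275), whereas of those behind the replicate 2 values (23467935 and 20008841) 53.2% and 54.4% repeated a position already held. Replicates 1 and 2 therefore differ in how repeated positions were treated, in both groups alike, and values of the 2 are set side by side below rather than read as one scale.

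Sequences for the genes at which regulation and transcript form are discussed are shown first. The H3.3 genes encode the same protein from unlike promoters. The 250 bases before the RefSeq start site (GRCm38.p6) are given 5′ to 3′ on the minus strand for H3f3a (chr1:180813606-180813855), H3f3b (chr11:116024505-116024754) and H1fx (chr6:87981483-87981732), with the CCAAT box, the TATA box TATAAA, the GC box GGGCGG and the H1 box AAACACA, or their reverse complements, in capitals.
H3f3a: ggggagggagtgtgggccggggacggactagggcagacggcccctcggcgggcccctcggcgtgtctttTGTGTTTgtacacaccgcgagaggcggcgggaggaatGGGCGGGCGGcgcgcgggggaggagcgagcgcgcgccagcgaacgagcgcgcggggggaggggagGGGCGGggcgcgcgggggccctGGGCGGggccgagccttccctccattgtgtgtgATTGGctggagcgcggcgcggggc
H3f3b: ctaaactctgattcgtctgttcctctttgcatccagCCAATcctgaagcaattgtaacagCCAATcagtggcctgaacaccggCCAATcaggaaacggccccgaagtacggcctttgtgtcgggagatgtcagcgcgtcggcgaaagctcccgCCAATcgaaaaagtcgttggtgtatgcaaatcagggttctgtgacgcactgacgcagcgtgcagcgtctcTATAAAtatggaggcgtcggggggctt
H1fx: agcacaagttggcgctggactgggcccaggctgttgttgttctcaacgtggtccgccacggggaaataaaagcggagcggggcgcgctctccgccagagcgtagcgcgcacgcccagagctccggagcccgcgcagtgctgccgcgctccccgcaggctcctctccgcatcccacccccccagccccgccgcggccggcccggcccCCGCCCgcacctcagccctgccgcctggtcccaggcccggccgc
The H3f3a stretch was 77.2% G or C with 35 CpG, against 54.0% and 19 CpG for H3f3b. H3f3b held 4 CCAAT motifs (first bases at -214, -190, -167 and -97) and a TATAAA at -27. H3f3a held no TATAAA, 1 CCAAT and, counted to 50 bases past the start, 6 GGGCGG, of which some overlap. It also held 1 AAACACA, the H1 box, on the opposite strand (at -181). H1fx, a linker histone gene, held 1 GGGCGG on the opposite strand and no AAACACA, nor did the RefSeq promoter of H1f0 hold one. Of the first promoter listed for each of 27025 genes, in the same 300-base window and on either strand, 37.9% held the CCAAT box, 14.2% the TATA box, 35.9% the GC box and 7.14% the H1 box. A match of letters is a description and not a bound site. Promoters were matched for 9 of the 10 genes, H2afx being the other.

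At H1f0 (chromosome 15, plus strand) the alignments began well past the RefSeq start, as the plot of alignments along the gene shows. In none of the 4 alignment files did an alignment begin within the 250 bases before that start or the 100 bases after it, and the first aligned base was base 240 in 1 file and base 246 or later in the others, although every 35-base window of the gene is unique in mm9. Within the 250 bases that precede base 240 (mm9 position 78858881) lay 1 AAACACA, the H1 box known from promoters of H1 genes, with its first base 118 bases before the first aligned base. It is shown with 10 bases on either side (mm9 chr15:78858753-78858779).
H1 box of H1f0: tcggcggaagAAACACAgatggcggca
Among the first 250 bases of the RefSeq promoters, 6.22% held this motif on either strand, and the H1f0 window was placed after the alignments had been seen. Counted as distinct positions within the first 100 bases after the RefSeq start, the 4 files held 25 to 49 at H3f3a, 40 to 79 at H3f3b, 0 to 23 at H1fx and 1 to 3 at H2afy2. In the 250 bases before it they held 0 to 3, 0 to 4, 3 to 16 and 2 to 25.

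**Figure D1:**
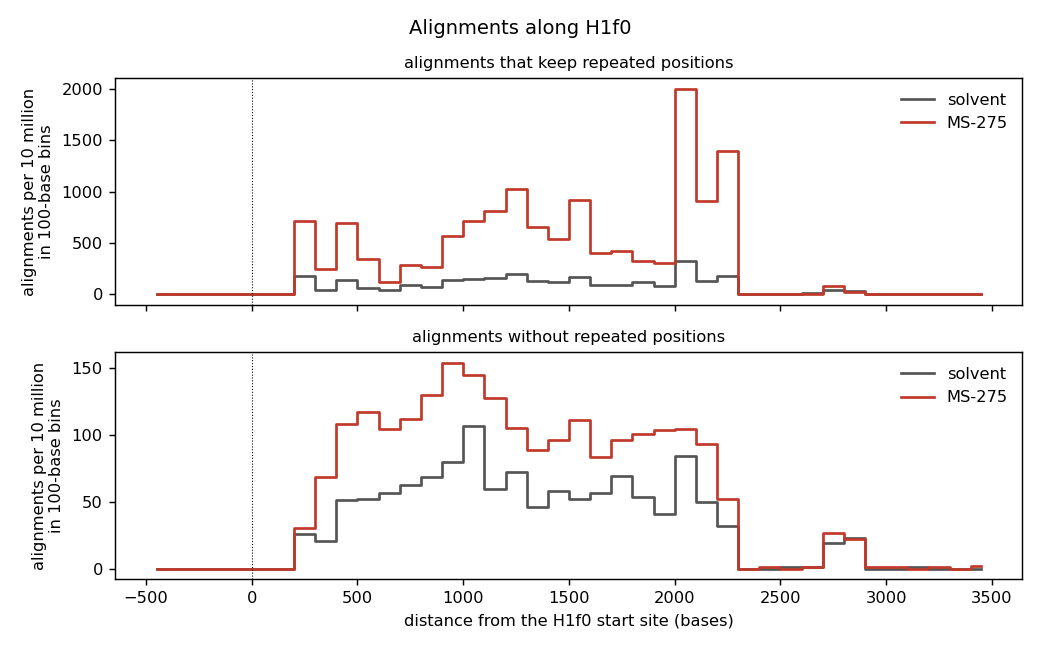
Alignments per 10 M in 100-base bins (vertical axis) along H1f0 by distance from the RefSeq start in bases (horizontal axis), for solvent and MS-275, in the alignment files that keep repeated positions (top) and those without them (bottom). No alignment precedes base 240, MS-275 lies above solvent along the gene in both panels, and the bin 2000 bases past the start stands out only at the top.

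With MS-275, the groups did not overlap for 2 of the 10 genes: H1fx was higher in both treated libraries, as 32.3% of the genes tested were, and the macroH2A2 gene H2afy2 was lower in both, as 12% were. Overlap is judged across replicates 1 and 2 and so across both treatments of repeated positions, as are the means ± SD below. H1f0 and H2afx were higher in both replicate pairs, but their treated and control libraries overlapped. The other 6 genes moved little in 1 pair or moved in opposite directions. None of the 10 passed an adjusted p of 0.05 in limma without a block, where 0.00492% of the 20336 genes tested passed as higher (1 gene) and 0% as lower. At an unadjusted p under 0.05, 2974 genes were higher and 564 lower in that fit, among them 1 member each way. With the replicate number as a block, 3 of the 10 passed as higher (H1f0, H1fx, H2afx) against 21% of all genes, and 1 as lower (H2afy2) against 6.46%. On distinct alignment positions, each counted once, limma-voom without the block called the same 3 genes higher, against 14.7% of 17785 genes, and H2afy2 lower, against 4.96%. With the block on these positions 5 were higher, H2afv and H3f3b joining them, against 28.8%, and 1 was lower, against 13.2%. The median log2 fold change was 0.46 over the 10 genes and 0.20 over all genes tested, and quantile normalization and median-ratio scaling took the second to -0.03 and -0.01 and the first to 0.31 and 0.18. Leaving out 1 library moved the median of the 10 genes to -0.43 (solvent replicate 1), 1.37 (solvent replicate 2), 1.76 (MS-275 replicate 1) or -0.92 (MS-275 replicate 2). The split of calls depended on that scaling too: the block fits called 4277 higher and 1314 lower on the deposited scale, 2936 and 2961 after quantile normalization, and 3379 and 2864 after median-ratio scaling.

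**Figure D2:**
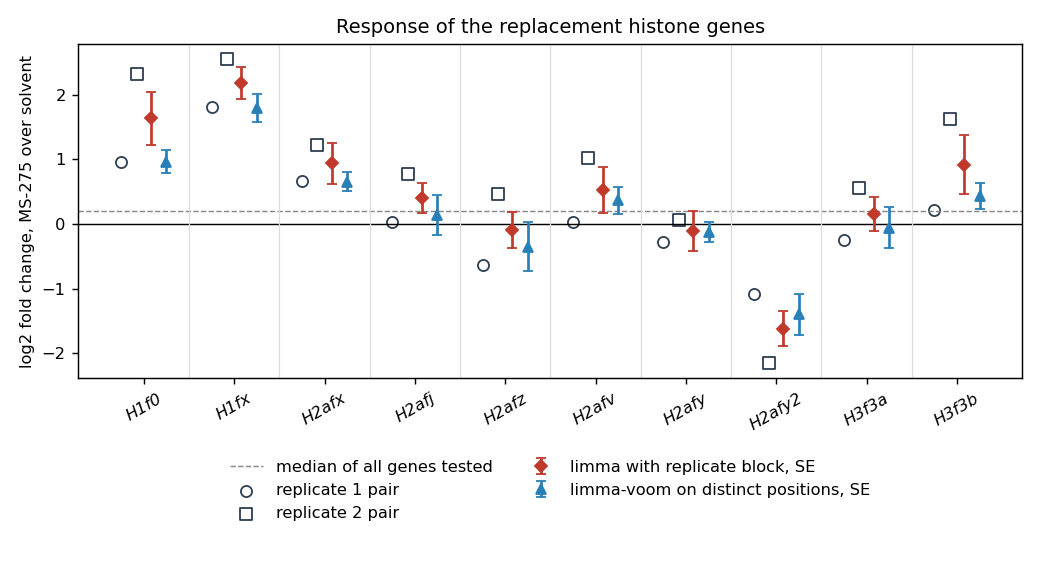
Log2 fold change of MS-275 over solvent for the 10 genes, by replicate pair and in the limma fits with their standard errors. H1fx lies highest and H2afy2 lowest, and for genes such as H3f3b, H3f3a and H2afz the pairs stand far apart.

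Levels differed widely among the 10 genes, and their order depended on the replicate. The value is per base, so genes are set side by side within a library, with the limits given below for repeats and for windows that are not unique. In replicate 1, H2afy (0.610), H1f0 (0.602) and H2afv (0.601) were nearly equal at the top with solvent, and H3f3a was lowest (0.0950). In replicate 2, H3f3b led (4.17), followed by H2afv (1.83), H2afy (1.83) and H3f3a (1.70), which differed little, and H1fx was lowest (0.153). With MS-275, H1f0 ranked first of the 10 in replicate 1 and second in replicate 2, behind H3f3b, and among all 28250 genes it moved from percentiles 98.6 and 98.5 with solvent to 99.99 and 99.8. H1fx moved from percentiles 79.9 and 82.5 to 98.9 and 97.1, the largest climb of the 10. H2afy2 moved down, from 75.5 and 85.6 to 63.3 and 64.0. The median gene had a replicate 2 value of 0.737 times its replicate 1 value with solvent and 0.764 times with MS-275, whereas H3f3a was 17.9 and 31.5 times and H3f3b 8.01 and 21.3 times higher in replicate 2. The gap of H3f3a includes a shift in the length that its values imply, described below with the H3.3 genes. Order is therefore given within a replicate only, and differences between H3f3a and its neighbours cannot be separated from the spread between replicates. Where each position counts once, the value has a ceiling. The highest value of any gene was 1.63 with solvent and 1.43 with MS-275 in replicate 1, against 34.1 and 47.1 in replicate 2. Replicate 1 values near the top, that of H1f0 with MS-275 included, are thus not read as an order of mRNA abundance.

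**Figure D3:**
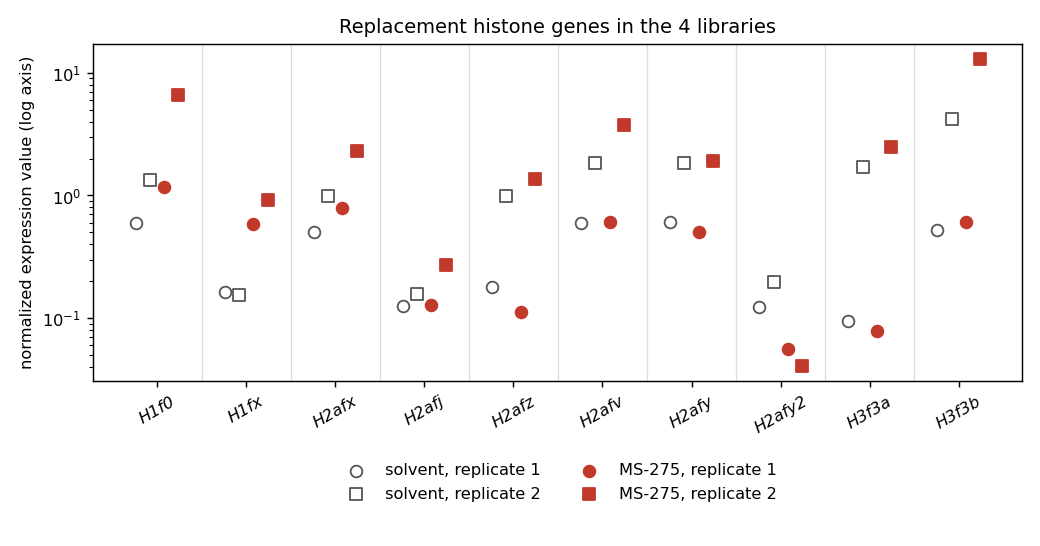
Normalized expression value (vertical axis, log scale) of each of the 10 genes in the 4 libraries. The treated libraries lie above both controls for H1fx and below both for H2afy2, and replicate 2 lies above replicate 1 in both groups for most of the other genes.

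H1f0, the linker histone of resting and differentiated cells (Entrez 14958), had values of 0.602 and 1.33 with solvent (replicates 1 and 2) and of 1.17 and 6.63 with MS-275. Both pairs were higher with MS-275, while treated replicate 1 lay below solvent replicate 2, a comparison that crosses the 2 treatments of repeats. The means were 0.964 ± 0.512 and 3.90 ± 3.86 (SD, n = 2 each). MS-275 stood 1.94-fold above solvent in pair 1 and 5.00-fold in pair 2, and limma gave a log2 fold change of 1.63 (SE 1.25, adjusted p = 0.604). With the replicate block the SE fell to 0.409 (adjusted p = 0.00757). On distinct positions without a block, counted on a gene model of 534 bases, the log2 fold change was 0.96 (adjusted p = 0.0124). Among all genes tested its fold change stood at percentile 95.5. Without MS-275 replicate 2 the log2 fold change was 0.38, and without MS-275 replicate 1 it was 2.88.

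The size of the H1f0 change followed the treatment of repeated positions. Over the 2293 bases of the gene (mm9 chr15:78858642-78860934) the files that keep repeats held 6437 alignments with solvent and 27395 with MS-275, on 1538 and 2464 distinct positions. Each occupied position thus carried 4.19 alignments with solvent and 11.1 with MS-275, while the median gene carried 1.45 and 1.54. The change was 4.99-fold with repeats kept, 1.93-fold with each position of the same files taken once and 1.78-fold in the files without repeats, each from 1 library per group and so with no test. In the files without repeats, the share of possible positions on both strands that were occupied went from 25.5% to 50.7%, so that a ceiling on the count lies closer in the treated library. Whether stacked alignments are copies made in amplification or separate molecules was not tested. In the bin that begins 2000 bases past the start, 773 alignments stood on 111 positions with solvent and 4009 on 139 with MS-275. The mm9 gene models used here (GENCODE M1) hold H1f0 only as a model of 534 bases in 3 exon blocks labelled a pseudogene, so the counts over the whole gene are taken over the RefSeq length. The limma-voom fits on distinct positions used the short model. On it 37.2% and 32.9% of possible positions were occupied in the solvent files and 61.8% and 68.9% in the MS-275 files, so the ceiling lies closer there.

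Across the 4 libraries, the 3 genes whose centred log2 values lay nearest to those of H1f0, of 10087 compared, were Mreg (distance 0.234), Cox7a1 (0.282) and LOC100503256 (0.368). Mreg had values of 0.541 and 1.06 with solvent and 0.992 and 6.62 with MS-275, close to those of H1f0 in level as well. A likeness over 4 libraries is a description.

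H1fx, the gene of the linker histone H1X (Entrez 243529, mm9 chr6:87930416-87931476, minus strand, a single exon), had values of 0.164 and 0.153 with solvent and of 0.588 and 0.921 with MS-275. The controls were nearly equal and both treated libraries lay above them, at 0.754 ± 0.235 against 0.159 ± 0.00730 (SD, n = 2 each). H1fx was 3.59-fold and 6.0-fold higher in the 2 pairs, and it was the only one of the 10 genes at least 2-fold higher in both, as 11.5% of the 28250 genes were. The log2 fold change was 2.18 (SE 0.435, adjusted p = 0.0612), at percentile 98.1 of all genes. It passed with the replicate block (SE 0.247, adjusted p = 1.78e-05), on distinct positions (log2 fold change 1.79, adjusted p = 0.00483) and without a block when genes with a mean under 0.01 were left out (adjusted p = 0.0107). In the files with repeats H1fx carried 1.74 alignments per position with solvent and 3.25 with MS-275. Its 3 estimates were 6.01-fold with repeats, 3.31-fold with each position once and 3.60-fold in the files without repeats, so this change stayed above 3-fold in each.

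Among the other linker histones, values were far lower. Of 9 listed names, 5 were tested, and 4 rose with the replicate block and 0 fell, with a median log2 fold change of 1.51. On the deposited values 0 passed without the block, except Hist1h1c when genes with a mean under 0.01 were left out (adjusted p = 0.0465). On distinct positions without the block 3 of 6 tested passed as higher (Hist1h1a, Hist1h1c and Hist1h1t). Hist1h1a, a replication-dependent H1 subtype, went from 0.0137 and 0.0108 to 0.0638 and 0.0542 (log2 fold change 1.89, adjusted p = 0.000262 with the block), and Hist1h1c, an H1 subtype whose mRNA is also found polyadenylated, from 0.0907 and 0.0637 to 0.213 and 0.268 (1.59, adjusted p = 0.000195). The testis form Hist1h1t rose from 0.00225 and 0.000470 to 0.0121 and 0.0138, and Hist1h1d from 0.00518 and 0.00344 to 0.0151 and 0.00790. Hist1h1b had a log2 fold change of 0.52 (adjusted p = 0.215 with the block). The oocyte form H1foo was listed at 0 in all 4 libraries, and H1fnt and Hils1 stayed under the filter. Hist1h1e had no deposited value under that name. It was tested on distinct positions only, where it did not pass without the block. Summed over the list without Hist1h1e, values were 0.129 and 0.0846 with solvent and 0.330 and 0.354 with MS-275, below the value of H1f0 alone in every library.

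H2afx encodes H2A.X, which the kinases of the DNA damage response phosphorylate (Entrez 15270, mm9 chr9:44142798-44144154, plus strand, a single exon). Its values were 0.501 and 0.982 with solvent and 0.792 and 2.29 with MS-275. Each treated library lay above the control of the same number, and the groups overlapped. MS-275 stood 1.58-fold and 2.33-fold above solvent in the 2 pairs (log2 fold change 0.94, SE 0.841, adjusted p = 0.680). The block gave an adjusted p of 0.0360 and distinct positions a log2 fold change of 0.65 (adjusted p = 0.0216), while median-ratio scaling with the block took the call away (adjusted p = 0.107). The log2 fold change was 0.17 without MS-275 replicate 2 and 1.70 without MS-275 replicate 1. Of the 5 listed genes that phosphorylate or read H2A.X, 0 passed in either direction with the block on the deposited scale, and 3 were lower with the block after median-ratio scaling. Their median log2 fold change was -0.31, with Baz1b, a tyrosine kinase of H2A.X, at -0.44 and Prkdc, the catalytic subunit of DNA-PK, at -0.34.

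H2afj encodes H2A.J, an H2A variant known from senescent fibroblasts (Entrez 232440, mm9 chr6:136756769-136758595, plus strand, a single exon). It had values of 0.126 and 0.157 with solvent and 0.129 and 0.270 with MS-275. Only treated replicate 2 lay clearly above the controls. The pairs gave log2 fold changes of 0.03 and 0.77, and the fit gave 0.40 (SE 0.438, adjusted p = 0.763, and 0.228 with the block).

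The H2A.Z genes encode proteins that differ at a few residues. H2afz, the gene of H2A.Z.1 (Entrez 51788, mm9 chr3:137527451-137529886, plus strand), had values of 0.179 and 0.997 with solvent and 0.113 and 1.37 with MS-275. It was lower in pair 1 (63.1% of solvent) and higher in pair 2 (1.37-fold), so no common direction was seen (log2 fold change -0.09, SE 1.08, adjusted p = 0.989). H2afv, the gene of H2A.Z.2 (Entrez 77605, mm9 chr11:6327229-6344446, minus strand), had values of 0.601 and 1.83 with solvent and 0.613 and 3.73 with MS-275. It was equal in pair 1 (1.02-fold) and 2.04-fold higher in pair 2 (log2 fold change 0.53, SE 1.14, adjusted p = 0.906, and 0.299 with the block). On distinct positions it passed only with the block (0.39, adjusted p = 0.0319). Only 57.2% of the 35-base windows of H2afz are unique in mm9, against 99.1% for H2afv. Unique windows held 100% of the H2afz alignments in the files with repeats. In the files without repeats they held 99.1% (solvent) and 98.8% (MS-275). H2afz was thus counted almost only on the unique part of its exons, and its level against H2afv is not read as abundance.

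The ratio of H2afz to H2afv within a library does not depend on the scale of the library. It was 0.299 and 0.545 with solvent and 0.185 and 0.367 with MS-275. It was lower with MS-275 in both pairs, by 0.67 and 0.57 on the log2 scale, and the groups overlapped (difference -0.62, exact permutation test, two-sided p = 0.667, with 0.333 the smallest p that 2 against 2 allows). On distinct positions the difference was -0.68 (exact permutation p = 0.333), and there the groups did not overlap. Of 12 genes that exchange or remove H2A.Z, 1 fell and 0 rose with the block (median log2 fold change -0.06). Ruvbl1, an ATPase of the SRCAP, p400 and INO80 complexes, was at -0.77 (adjusted p = 0.0251 with the block), Ino80 at -0.30, Ep400 at 0.49 and Znhit1 at 0.38, the last 3 not past this test. On distinct positions without the block, Ep400 (0.50, adjusted p = 0.0288) passed as higher and Ino80 (-0.65, adjusted p = 0.0324) as lower, and Ruvbl1 did not pass (adjusted p = 0.198).

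The macroH2A genes parted. H2afy2, the gene of macroH2A2 (Entrez 404634, mm9 chr10:61201391-61246895, minus strand), had values of 0.124 and 0.199 with solvent and of 0.0556 and 0.0408 with MS-275. Both treated libraries lay below both controls, at 0.0482 ± 0.0105 against 0.161 ± 0.0528 (SD, n = 2 each). It stood at 44.8% and 20.5% of solvent in the 2 pairs and was the only one of the 10 at least 2-fold lower in both, as 2.04% of the 28250 genes were. The log2 fold change was -1.62 (SE 0.445, adjusted p = 0.100), at percentile 0.767 of all genes, and it passed with the block (SE 0.270, adjusted p = 0.000412) and on distinct positions (-1.40, adjusted p = 0.0226). In the files with repeats 943 alignments with solvent stood against 167 with MS-275, and in the files without them 246 against 121. Taken per library, this left 20.8% of solvent with repeats kept, 32.5% with each position once and 44.1% without repeats.

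H2afy, the gene of macroH2A1 (Entrez 26914, mm9 chr13:56174980-56237722, minus strand), had values of 0.610 and 1.83 with solvent and 0.501 and 1.91 with MS-275. The pairs stood at 82.2% and 104% of solvent, with a log2 fold change of -0.11 (SE 0.946, adjusted p = 0.984, and 0.830 with the block). On distinct positions it was -0.13 (adjusted p = 0.614). Alignments on its exons, scaled per library, stood at 94.4% of solvent in the files without repeats and 85.0% with repeats, below solvent in both. The ratio of H2afy to H2afy2 was 4.91 and 9.19 with solvent and 9.01 and 46.7 with MS-275, higher in both pairs (by 0.81 and 2.21 on the log2 scale, difference 1.51). The groups overlapped by a narrow margin (exact permutation test, two-sided p = 0.667, smallest possible 0.333). On distinct positions the difference was 1.26 and the groups did not overlap (exact permutation p = 0.333).

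H2afy makes the splice forms macroH2A1.1 and macroH2A1.2, which differ by 1 exon each, and only macroH2A1.1 binds ADP-ribose. The gene values add both forms, so the exons were counted in the alignments. They are shown 5′ to 3′ on the minus strand from mm9, macroH2A1.2 at chr13:56191119-56191218 and macroH2A1.1 at chr13:56189613-56189703, and every 35-base window in them is unique.
macroH2A1.2: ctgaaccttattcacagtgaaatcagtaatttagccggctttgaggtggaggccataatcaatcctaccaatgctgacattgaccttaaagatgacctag
macroH2A1.1: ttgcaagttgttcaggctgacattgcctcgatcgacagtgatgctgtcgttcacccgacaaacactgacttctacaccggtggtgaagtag
Distinct positions on the macroH2A1.1 exon and on the macroH2A1.2 exon numbered 2 and 59 in the alignments deposited with solvent replicate 1 (3.28% macroH2A1.1, 95% Wilson interval 0.904 to 11.2%) and 6 and 60 in those of solvent replicate 2 (9.09%, 4.23 to 18.4%). With MS-275 they numbered 4 and 44 (8.33%, 3.29 to 19.6%) and 10 and 63 (13.7%, 7.61 to 23.4%). In all 4 files macroH2A1.2 was the main form. The share of macroH2A1.1 was higher with MS-275 in both pairs of files of the same number, by 4.83 percentage points in the mean, a difference smaller than these intervals, with overlapping groups (exact permutation test, two-sided p = 0.667, smallest possible 0.333). The intervals cover counting error alone, and the permutation test could not reach a p under 0.333 for a difference of any size.

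The H3.3 genes showed the largest gaps between replicates. H3f3a (Entrez 15078, mm9 chr1:182730963-182744074, minus strand) had values of 0.0950 and 1.70 with solvent and 0.0794 and 2.50 with MS-275. It was at 83.5% of solvent in pair 1 and 1.47-fold higher in pair 2 (log2 fold change 0.16, SE 1.53, adjusted p = 0.986, and 0.695 with the block), and its sign turned under quantile normalization and median-ratio scaling (-0.12 in each). H3f3b (Entrez 15081, mm9 chr11:115883226-115889276, minus strand) had values of 0.521 and 4.17 with solvent and 0.602 and 12.9 with MS-275. It was 1.16-fold and 3.08-fold higher (log2 fold change 0.92, SE 1.82, adjusted p = 0.896, and 0.145 with the block). It passed in the block fits after quantile normalization (0.74, adjusted p = 0.00496) and on distinct positions (0.46, adjusted p = 0.00648), and in no other fit.

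H3f3b carried the deepest stacks of alignments of the 10 genes. In the files with repeats 16331 alignments with solvent and 42962 with MS-275 stood on 1059 and 1358 positions, or 15.4 and 31.6 per position, and the change was 3.09-fold with repeats, 1.54-fold with each position once and 1.19-fold in the files without repeats. H3f3a carried 13.5 and 19.3 per position. Uniqueness limits both genes, with 76.4% of the 35-base windows of H3f3b and 72.5% of those of H3f3a found once in mm9. Processed copies of H3.3 genes are known elsewhere in the mouse genome. For H3f3a the scaled alignments on its exons, divided by the value, gave 1076 and 1316 bases in replicate 1 and 531 and 457 bases in replicate 2. For H1fx the same division gave 1061 to 1064 in every library. H2afv and H2afy had such shifts as well (913 and 1021 against 673 and 702 bases, and 1815 and 2085 against 1368 and 1114). Whether the length, the exons or the reads counted differed was not tested, and the levels of these 3 genes are not read as abundance between replicates 1 and 2. These lengths also differed between solvent and MS-275 within a replicate, so the fold changes and ratios from deposited values carry that shift. Counted directly as alignments per library, H3f3a was 1.02-fold in the files without repeats, behind replicate 1, and 1.27-fold with repeats. The same counts gave 1.14-fold and 2.13-fold for H2afv, and 94.4% and 85.0% of solvent for H2afy.

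The ratio of H3f3a to H3f3b was 0.183 and 0.407 with solvent and 0.132 and 0.195 with MS-275. It was lower in both pairs (by 0.45 and 1.06 on the log2 scale, difference -0.76), with overlapping groups (exact permutation test, two-sided p = 0.667, smallest possible 0.333). On distinct positions the difference was -0.49 without overlap (exact permutation p = 0.333). H3f3b thus had the higher value in all 4 libraries. Because of the windows that are not unique and the shifts of H3f3a described above, mRNA abundance was not compared. Of 8 genes that deposit H3.3 or handle it, 2 fell and 0 rose with the block, with a median log2 fold change of -0.27. Those were Daxx (-0.72, adjusted p = 0.0287) and Atrx (-0.83, adjusted p = 0.0188), the partners that place H3.3 at repeats and telomeres. Ubn1 and Cabin1, of the HIRA complex that places it at genes, had log2 fold changes of 0.45 and 0.29 and did not pass, nor did Hira itself (-0.00431). The related gene Ubn2 was at -0.54 (adjusted p = 0.0786 with the block). On distinct positions without the block it passed as lower (-0.56, adjusted p = 0.0252), as did Daxx (adjusted p = 0.0491) and Atrx (adjusted p = 0.00806). On distinct positions with the block 5 of the 8 fell, Hira among them (-0.34, adjusted p = 0.0363).

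**Figure D4:**
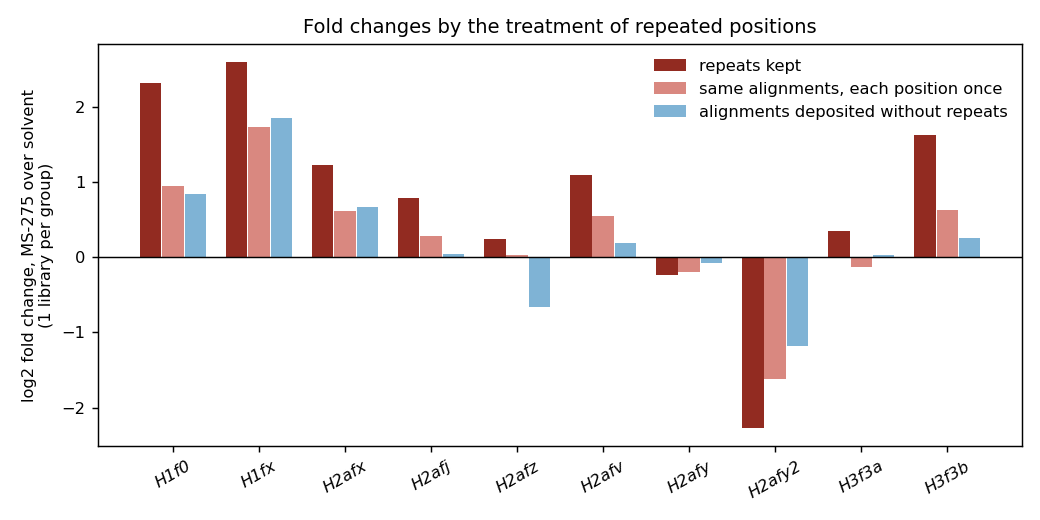
Log2 fold change of MS-275 over solvent (vertical axis) for the 10 genes from 1 library per group, with repeated positions kept, with the same alignments counted once per position, and in the alignment files deposited without repeats. H1fx and H1f0 stay highest and H2afy2 lowest in all 3, and the bars of H1f0 and H3f3b shrink most.

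Over all 10 genes, counting each position once in the same files brought the fold change closer to 0 for all 10, and past it for H3f3a, which went from 0.34 to -0.13. The log2 change lost was 1.37 for H1f0, 1.0 for H3f3b, 0.86 for H1fx, 0.61 for H2afx, 0.55 for H2afv and 0.51 for H2afj, and H2afy2 became less negative by 0.64. Over 17820 genes the median of this difference was 0.0393, with 5th and 95th percentiles of -0.42 and 0.51, so the first 6 of these genes lay at or above the upper one and H2afy2 below the lower one.

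The genes that supply histones in S phase went both ways. Of 6 tested, 1 rose and 0 fell with the block (median log2 fold change 0.03): Asf1b, a histone chaperone of dividing cells, at 0.74 (adjusted p = 0.0369). Chaf1a was at 0.21, and the H3 and H1 chaperone Nasp at -0.68 and Chaf1b at -0.47, none past the test. After median-ratio scaling with the block, 0 rose and 2 fell (median -0.25). Of the other variant core histones, 5 were tested, and 4 rose and 1 fell with the block. Hist3h2ba went from 0.0198 and 0.0344 to 0.126 and 0.572 (log2 fold change 3.14, adjusted p = 4.22e-06) and the testis H2A gene Hist1h2aa from 0.00262 and 0.00546 to 0.0188 and 0.0282 (1.65, adjusted p = 0.000718). Cenpa, the centromeric H3 variant, fell from 0.578 and 1.16 to 0.350 and 0.601 (-0.83, adjusted p = 0.0283). H2afb1 stayed under the filter, and H2afb3 and Hist3h2a had no deposited value under those names. On distinct positions without the block 4 genes of this list were tested, with 3 higher and 1 lower. The 3 higher ones included a gene without a deposited value. In these 6 lists 0 genes passed in limma on the deposited values without the block, while 7 at an unadjusted p under 0.05 were higher. Without the block, 7 passed as higher and 5 as lower on distinct positions, and 2 as higher when genes with a mean under 0.01 were left out.

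**Figure D5:**
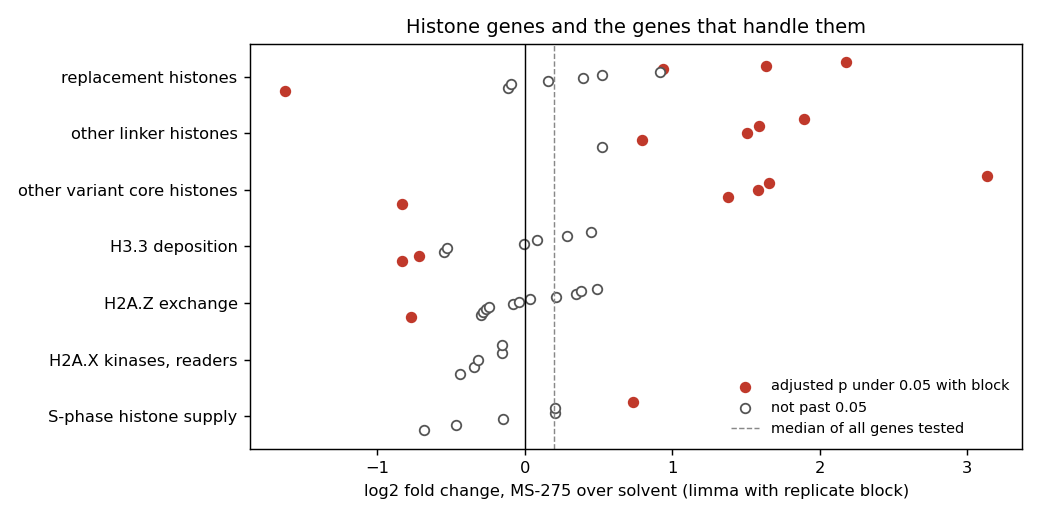
Log2 fold change of MS-275 over solvent (horizontal axis, limma with the replicate block) for the 10 genes and for each gene of the 6 lists, 1 point per gene, filled where the adjusted p was under 0.05. The linker and variant core histones lie mostly to the right of the median of all genes, and the chaperone lists lie around or to the left of it.

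Clustered histone genes were present at a low level, as 58 listed genes of which 56 were tested. They were taken by symbol prefix, so they include the genes of the linker and variant lists above whose symbols begin with Hist. With the block 26 rose, against 21% of all genes tested, and 0 fell, with a median log2 fold change of 0.68. In limma without the block 0 passed (13 higher at an unadjusted p under 0.05). The 26 became 11 with the block after quantile normalization (median 0.23) and 18 after median-ratio scaling (median 0.51). Without the block, 5 of 24 tested on distinct positions passed as higher, and 2 of 36 with a mean of at least 0.01. Their summed values were 0.872 and 0.770 with solvent and 1.47 and 2.93 with MS-275, against 3.52 and 13.3 and then 4.64 and 32.5 for the 10 replacement genes. Since the libraries hold poly(A) RNA, these sums do not give the total histone mRNA of the cells.

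ESC markers were present in every library. Of 10, 4 fell with the block (Fgf4, Utf1, Esrrb and Pou5f1) and 0 rose, the other 6, Nanog and Sox2 among them, did not pass, and the summed values of the list were 6.08 and 23.2 with solvent and 4.83 and 13.6 with MS-275. Of 12 fibroblast markers, included because the line is kept on feeder cells, 6 rose with the block (Col1a1, Col1a2, Lum, Thy1, Pdgfrb and Fbn1) and 0 fell, with sums of 0.401 and 0.544 and then 0.713 and 0.941, and none was listed at 0 in all 4 libraries. Col3a1 (-0.52) and Dcn (-0.72) had negative log2 fold changes. The fibroblast counts depended on the scaling, with 4 higher and 2 lower in the block fit after quantile normalization and 5 and 1 after median-ratio scaling. No gene of either list passed in limma on the deposited values without the block, where 2 ESC markers were lower and 4 fibroblast markers higher at an unadjusted p under 0.05. On distinct positions without the block, 2 ESC markers passed as lower (Fgf4 and Utf1) and 3 fibroblast markers as higher (Col1a1, Thy1 and Pdgfrb). Fewer cells of a type and less RNA per cell cannot be told apart in bulk RNA, and the part of these shifts in the changes of H1f0, H1fx and H2afy2 was not tested.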

How the data were processed

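RNA-seq of 2 solvent and 2 MS-275 libraries was analysed, grouped by their titles. Per the paper's methods, reads of 36 bases from an Illumina GAIIx were mapped to mm9 (deposited alignments are 35 bases long), and normalized expression signal values were obtained by the authors with Genomatix. The aligner, the versions and the treatment of repeated reads are not given in the sources used here. The deposited alignment files carry a score column, which was not used. The shorter tables of genes at 0.001 or more and the authors' tables of ratios between conditions were not used.

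A gene was kept if 2 or more libraries held a value of 0.001 or above, and limma 3.58.1 (R 4.3.3; lmFit, eBayes with a trend) was fitted to log2(value + 0.005), a scale that understates the change of low genes, with Benjamini-Hochberg adjustment over all 20336 genes. A second fit held the replicate number as a block. The numbers were taken to pair the libraries because headers of the authors' shorter tables call replicate 1 of both conditions old. Deviations of same-numbered libraries from their group means correlated at 0.764 over 20336 genes. Same-numbered libraries also share the treatment of repeated positions, whose part in this correlation was not tested. With 2 pairs this fit rests on few residual degrees of freedom.

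Distinct alignment positions (both strands; the libraries are not described as stranded) were counted on GENCODE M1 exons (mm9) in Python 3.11.15 with numpy 2.4.6, pandas 2.3.3 and pysam 0.24.0, and limma-voom was run on genes that reached 10 in 2 or more libraries. H1f0 was counted over its RefSeq length for the repeat comparison and over the GENCODE model of 534 bases in limma-voom. Coordinates of genes are mm9. Promoters are from RefSeq on GRCm38.p6, and each was found at 1 place on its mm9 chromosome. Exact permutation tests used scipy 1.17.1 and figures matplotlib 3.10.9. The steps were tested on simulated data.

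Named genes were the 10 members, the 2 largest rises and the 2 largest falls of each list by log2 fold change, and the 3 genes nearest to H1f0 whose mean reached 0.05. The others were named after their values were seen. Members and lists were chosen with earlier results of these data known. The alternatives changed the pseudocount (0.001 or 0.02), the filter (none, or a mean of 0.01 or above) or the scaling (quantile or median-ratio, also with the block), or used the block alone, distinct positions with and without the block, or left out 1 library. The counts with repeats kept, with each position once and in the files without repeats, and the RefSeq length of H1f0, were added after seeing the data.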

Additional observations from a re-analysis of the deposited data

How the results depend on the processing

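Calls depended on the replicate block and on counting distinct positions. H1f0, at a log2 fold change of 1.63 without a call, passed with the block (1.63), with the block after quantile normalization (1.86) and median-ratio scaling (1.35), and on distinct positions without and with the block (0.96 and 0.97). Both fits on distinct positions took H1f0 as the gene model of 534 bases. Without each library in turn its value ran from 0.38 (without MS-275 replicate 2) to 2.88 (without MS-275 replicate 1), and such fits leave 1 group with a lone library assumed to vary like the rest. Members past an adjusted p of 0.05 as higher numbered 3 with the block, 4 with the block after quantile normalization, 2 after median-ratio scaling with the block, 1 at a mean value of at least 0.01, and 3 and 5 on distinct positions without and with the block, and 1 was lower in each of these except the mean filter. For all genes, 1 was higher in limma without the block and 0 with either other pseudocount, without a filter, or after either scaling. Higher and lower calls numbered 4277 and 1314 with the block, 466 and 65 at the mean filter, 2936 and 2961 with the block after quantile normalization, 3379 and 2864 after median-ratio scaling, and 2612 and 882, then 5116 and 2351, on distinct positions without and with the block. Without each library they ran from 0 to 160 and from 0 to 29, the highest without solvent replicate 1. For genes of the 6 lists the block gave 9 higher and 4 lower, 9 and 7 after quantile normalization, 7 and 11 after median-ratio scaling. Distinct positions gave 7 and 5 without and 9 and 12 with the block, the mean filter gave 2 higher, and single libraries left out gave 0 to 1.

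H3f3a turned negative after quantile normalization (-0.12) and median-ratio scaling (-0.12), the same with the block, and on distinct positions (-0.057 without and -0.039 with the block). Leaving out single libraries, which unbalances the replicates, turned H3f3a (-2.29 to 2.60), H3f3b (-1.29 to 3.12), H2afz (-1.86 to 1.68), H2afv (-0.77 to 1.83), H2afy (-1.07 to 0.85) and H2afj (-0.12 to 0.92), and did not turn H1fx (1.86 to 2.50), H2afx (0.17 to 1.70) or H2afy2 (-1.95 to -1.29). Reversed values were also 1.13 for H2afz and 0.68 for H2afy without solvent replicate 2, and -0.27 for H2afv, -1.89 for H3f3a and -0.58 for H3f3b without solvent replicate 1. The cause was not tested. With all 4 libraries, limma on the deposited values without the block made at most 1 call over all genes, except at the mean filter (466 higher and 65 lower). On distinct positions, limma-voom without the block called 2612 higher and 882 lower from the same number of libraries.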
